A study of Rattus norvegicus with 16 samples.

Results

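Ion channel genes were followed in rat pancreatic islets that received an adenovirus and then a nuclear receptor agonist or its solvent. The genes were those whose symbol starts with Kcn (potassium channels), Cacn (voltage-gated calcium channels) or Scn (voltage-gated sodium channels) in the probe annotation of the array. Kcnj11, the epithelial sodium channel genes (Scnn) and Scnm1, a splicing factor gene, were left out. This gave 108 genes on 152 probe sets, out of 10412 single gene symbols on 15923 probe sets, and each gene was read from its probe set with the highest mean. By family, 30 genes coded for voltage-gated potassium channels, with electrically silent subunits such as Kcns3 included, and 14 for inward rectifiers. Another 11 coded for two-pore potassium channels, 5 for calcium- or sodium-activated potassium channels and 12 for auxiliary potassium channel subunits. Calcium channels had 10 pore and 14 auxiliary genes, and sodium channels had 9 pore and 3 auxiliary genes.

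Every islet culture carried an adenovirus, applied at 50 particles per cell for 32 h. Controls received a null virus and the other cultures one that carried PPARγ (peroxisome proliferator-activated receptor gamma), a ligand-activated transcription factor. Both kinds were then kept for 16 h in 0.004% DMSO, the vehicle, or with the receptor agonist GW347845 at 200 nM. The comparisons rest on 14 arrays: 3 with null virus and vehicle, 3 with null virus and GW347845, 4 with PPARγ virus and vehicle, and 4 with PPARγ virus and GW347845. The null virus arrays are numbered 1, 3 and 4 and the PPARγ virus arrays 1 to 4, and values are given in that order. The labels name no strain, sex or age of the rats, no promoter of the virus and no cell type that it reached. The labels do not say whether replicates came from separate animals, so p-values measure the spread between these arrays, which may be technical.

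Pparg itself had a mean intensity of 33.0 ± 5.74 (SD, n = 3) with null virus and vehicle and 5593 ± 582 (SD, n = 4) with PPARγ virus and vehicle, a log2 difference of 7.22 ± 0.18 (SE). Fabp4, a fatty acid binding protein gene and classical PPARγ target, was at 17.0 ± 8.45 (SD, n = 3) in the double control (null virus and vehicle) and 572 ± 223 (SD, n = 4) with receptor and agonist (log2 difference 4.70, limma adjusted p = 1.29e-05). With GW347845 alone, Fabp4 differed by 3.42 ± 0.36 (SE, limma adjusted p = 0.000737) under PPARγ virus and by 0.60 ± 0.42 (limma unadjusted p = 0.171) under null virus, where the agonist gave no call on the array. Beta cell markers were present, with a summed intensity of 12708 to 20089 over 6 genes. The summed intensity of 5 hormone genes of other islet cells was 4640 to 9224 in the null virus vehicle arrays and 5442 to 7457 with null virus and GW347845. It was 998.5 to 9837 with PPARγ virus and vehicle and 498 to 8968 with PPARγ virus and GW347845, the low end being replicate 2 each time. Duct markers held the single call among the marker lists, 1 of 5 tested genes higher with PPARγ virus and GW347845 than with null virus, with either null virus control. RNA integrity, read as the 3 prime over 5 prime signal of control probe sets, gave ratios of 8.36 to 18.9 for Gapdh and 7.58 to 14.9 for beta-actin. These were higher with GW347845 in 4 and in 7 of 7 same-number pairs respectively.

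These genes build the electrical part of stimulus-secretion coupling. In a beta cell, glucose metabolism closes ATP-sensitive potassium channels, the membrane depolarises, and voltage-gated calcium channels open and let in the calcium that triggers insulin release. Sodium channels shape the upstroke of the action potential, most of all in alpha and delta cells, and voltage-gated and calcium-activated potassium channels repolarise the membrane. Two-pore channels set the resting potential, G protein-gated inward rectifiers slow firing when hormones or transmitters bind their receptors, and auxiliary subunits govern the traffic, gating and surface number of the pores. PPARγ acts as a transcription factor together with a retinoid X receptor, on direct repeats of the letters AGGTCA.

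Promoter sequence was taken from RefSeq (assembly GRCr8) for the 76 of 108 channel genes that matched by gene identifier. Windows ran from 250 bases before to 50 bases after the annotated start. The letters AGGTCA, on either strand, occurred in 7 of these 76 windows (9.21%), and in 2 of the 27 windows of genes that could be tested (7.41%). The share was 16.2% over all 33469 promoters, which include genes not on the array. It was 12.8% over the 8631 promoters of genes on the array and 11.9% over the 6365 promoters of tested genes. Copies in a row with 1 base between, AGGTCANAGGTCA on either strand, occurred in 0 channel gene windows and in 18 of all promoters (0.0538%). Among genes on the array they occurred in 1 promoter (0.0116%), and among tested genes in 0. A match describes the letters in the window and says nothing of binding. Kcnc4, a voltage-gated potassium channel pore, is shown because it is one of the tested pair with AGGTCA, which is in capitals and begins 133 bases before the start; the other was Kcnh1. Kcnip3, Kcnma1 and Scn7a are shown because their intensity varied together with the replicate number, as described further on, and none of them holds the letters. Each run is the 250 bases before the annotated start.
Kcnc4, chr2:197788434-197788683, minus strand: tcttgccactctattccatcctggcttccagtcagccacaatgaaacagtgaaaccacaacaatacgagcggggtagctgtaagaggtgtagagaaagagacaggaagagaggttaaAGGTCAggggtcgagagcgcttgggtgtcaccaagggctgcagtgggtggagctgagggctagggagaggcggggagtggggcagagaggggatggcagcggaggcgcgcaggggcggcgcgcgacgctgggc
Kcnip3, chr3:135195411-135195660, minus strand: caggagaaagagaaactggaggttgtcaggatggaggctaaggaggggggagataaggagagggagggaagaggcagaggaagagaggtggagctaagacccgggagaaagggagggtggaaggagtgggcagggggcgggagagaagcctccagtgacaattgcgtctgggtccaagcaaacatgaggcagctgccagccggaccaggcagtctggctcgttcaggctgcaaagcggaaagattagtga
Kcnma1, chr15:351675-351924, plus strand: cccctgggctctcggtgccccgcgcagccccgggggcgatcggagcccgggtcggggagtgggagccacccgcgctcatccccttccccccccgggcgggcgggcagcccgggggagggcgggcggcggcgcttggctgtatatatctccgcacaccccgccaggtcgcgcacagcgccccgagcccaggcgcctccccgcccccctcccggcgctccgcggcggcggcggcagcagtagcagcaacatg
Scn7a, chr3:71846285-71846534, minus strand: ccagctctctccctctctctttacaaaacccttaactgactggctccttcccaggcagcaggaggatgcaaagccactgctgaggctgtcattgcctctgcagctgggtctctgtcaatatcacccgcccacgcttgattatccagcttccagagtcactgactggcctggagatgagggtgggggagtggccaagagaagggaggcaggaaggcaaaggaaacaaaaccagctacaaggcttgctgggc
The G and C content of these runs was 60.8% for Kcnc4, 58.4% for Kcnip3, 79.6% for Kcnma1 and 56.0% for Scn7a. Over the full windows its median was 66.7% for the 27 tested channel genes, against 61.3% for the promoters of all tested genes.

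Most channel genes were dim on these arrays. Testing required an intensity above 39.3 on 4 or more arrays, which 35 of the 108 genes reached; 17 were above that limit in all 14 arrays. Of the 73 genes not tested, 60 were above it in no array and 13 in 1 to 3 arrays. Among the pores and silent subunits, the tested genes were 4 of 10 calcium channels, 3 of 9 sodium channels and 9 of 30 voltage-gated potassium channels. They were also 7 of 14 inward rectifiers, 3 of 11 two-pore channels and 1 of 5 calcium- or sodium-activated channels. Tested auxiliary genes were 3 of 14 for calcium, 2 of 3 for sodium and 3 of 12 for potassium channels.

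None of the 35 tested channel genes passed the threshold (limma adjusted p under 0.05) in any of the 6 contrasts. For the virus in vehicle, 0 of 35 passed where 0.0397% of the 10078 tested probe sets did, and 0 had an unadjusted p under 0.05. For the virus in GW347845 the background was 0.705%, with 0 channel genes called. At an unadjusted p under 0.05 there were 3 of 35, against 9.19% of all tested probe sets. For GW347845 under null virus the background was 0%, and 0 channel genes had an unadjusted p under 0.05. For GW347845 under PPARγ virus the background was 0.0595%, again with 0 channel genes at either level. The combined contrast, receptor and agonist against the double control, had a background of 0.665%, and 0 channel genes at either level. The interaction, the agonist effect under PPARγ virus minus that under null virus, had a background of 0%. At an unadjusted p under 0.05 it had 1 channel gene, against 1.42% of all tested probe sets. That unadjusted share was 4.43% for the virus in vehicle and 8.48% for the combined contrast. For GW347845 it was 0.943% under null virus and 2.93% under PPARγ virus. Because replicate numbers pair vehicle with GW347845 within a virus, the agonist contrasts were also fitted with the number as a block. Under null virus Kcnj15 and Kcnj4 then had unadjusted p of 0.0415 and 0.0460 (limma, adjusted p = 1.00 for both). Under PPARγ virus Kcnip3, lower with GW347845 in 4 of 4 pairs, had a log2 difference of -0.27 with an SE of 0.11 in place of 0.43 (limma unadjusted p = 0.0364, adjusted p = 0.519), and all tested probe sets were called in 0.397%. The blocked count of channel genes called was 0 in both. Among all 10078 tested probe sets, 411 under null virus and 878 under PPARγ virus had a blocked unadjusted p under 0.05. With backgrounds this low, a count of 0 among 35 genes is near the background in each contrast. Contrasts that share a group, such as the virus in vehicle and GW347845 under null virus, are not independent of each other.

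How large a change the arrays could have missed differs by gene. The median half-width of the 95% confidence interval over the 35 genes was 0.42 on the log2 scale for the virus in vehicle and for the combined contrast. It was 0.45 for GW347845 under null virus and 0.39 under PPARγ virus. With the number as a block, the last 2 were 0.32 and 0.28. The other intervals given here are from the fit without a block. So are the SE and p of single genes, unless a block is named. The whole interval lay within 2-fold either way for 32 of 35 genes for the virus in vehicle, 30 for the virus in GW347845, 33 for GW347845 under either virus, 30 for the combined contrast and 28 for the interaction. In the combined contrast the genes whose interval went beyond 2-fold were Kcna2, Kcne3, Kcnh6, Kcnip3 and Kcnk1. These counts rest on the chosen probe set of each gene. The other tested probe set gave a combined difference of 0.91 ± 0.26 (SE) for Kcnk6 and -0.40 ± 0.36 for Kcnj15, and both intervals reach beyond 2-fold. Median log2 differences were -0.01 for the virus in vehicle, -0.01 and -0.07 for GW347845 under null and PPARγ virus and -0.11 for the combined contrast, against 0.00, 0.00, -0.02 and -0.03 over all tested probe sets. In the combined contrast 9 channel genes had a positive and 26 a negative difference, while 44.7% of all tested probe sets were positive. The same split of 9 and 26 was found for GW347845 under PPARγ virus, where 45.0% of all were positive. Both contrasts use the same PPARγ virus GW347845 arrays, so the second split is not a separate observation. Genes also varied together between arrays, so the 35 signs are not independent, and the splits were not tested. In whole islets, fewer cells of a type and less RNA per cell cannot be told apart.

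**Figure D1:**
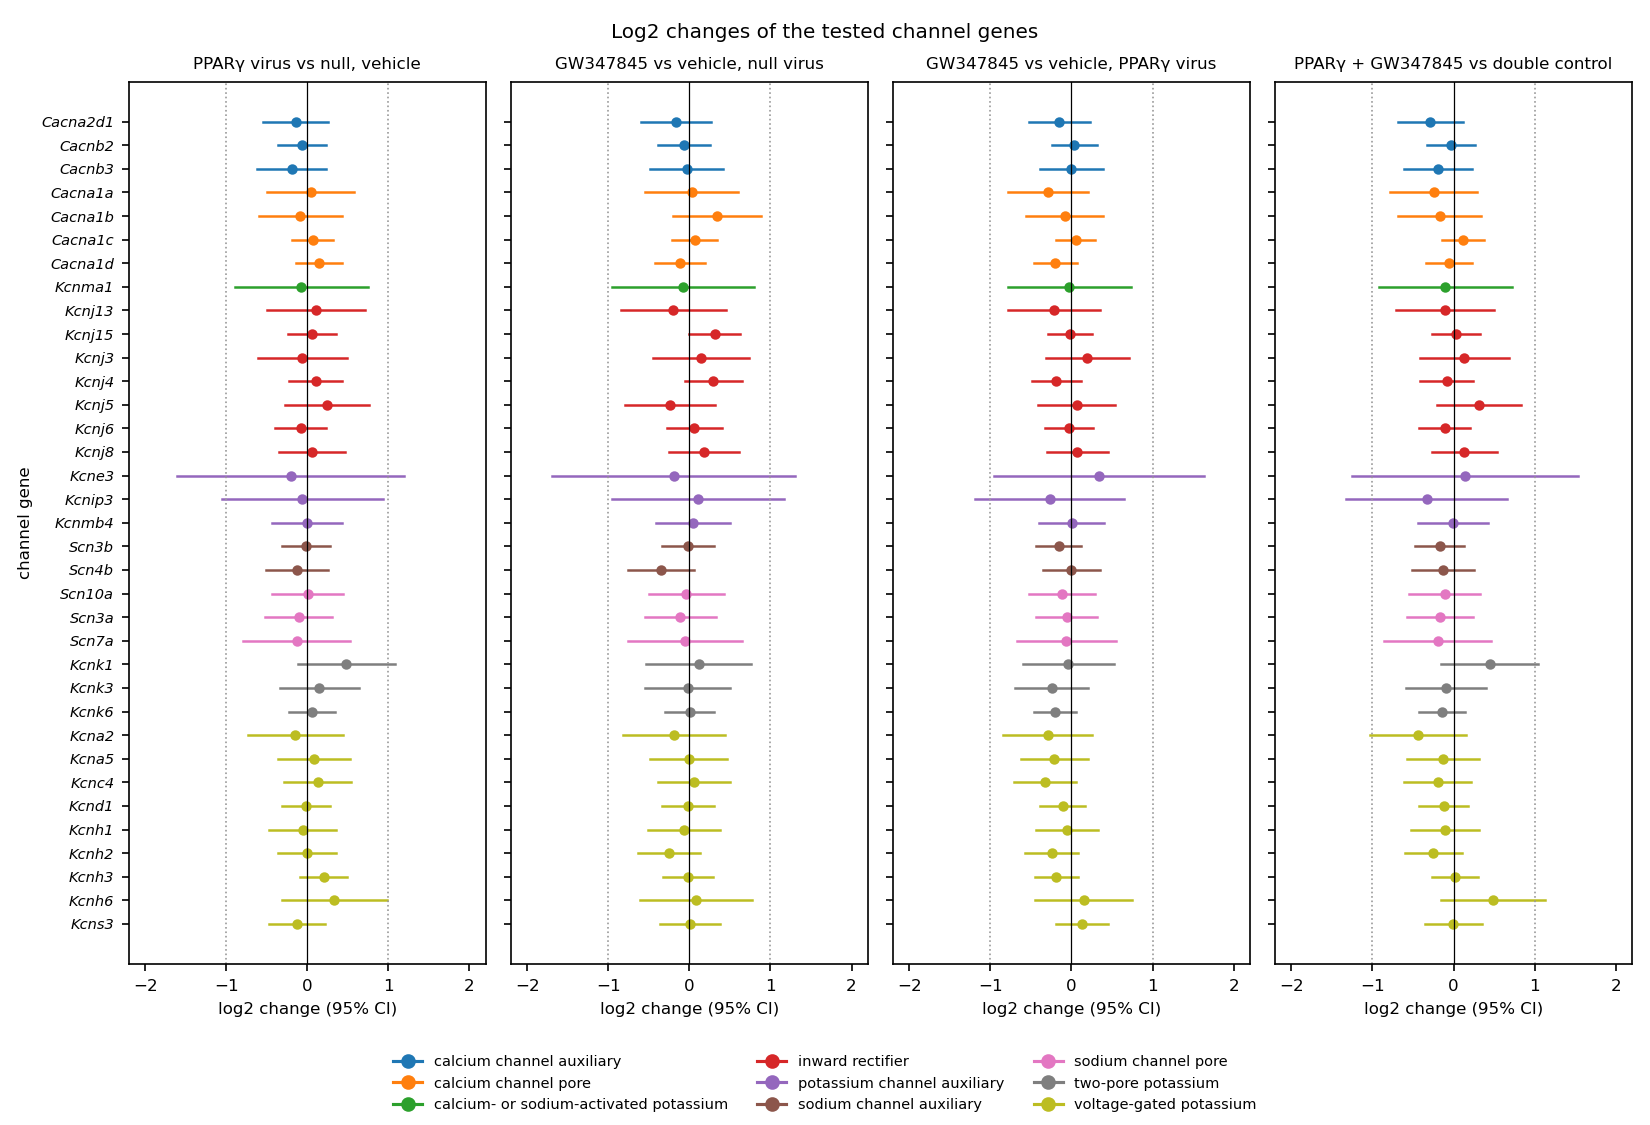
Log2 differences of the 35 tested channel genes with their 95% confidence intervals from limma without a replicate block. There is 1 row per gene and 1 panel for each of 4 contrasts, coloured by channel family. Dotted lines mark 2-fold either way. All intervals but those of Cacna1b, Kcnj4 and Kcnj5 for the virus in GW347845 and Kcnj4 for the interaction, contrasts not drawn here, include 0, and Kcne3 and Kcnip3 have the widest ones.

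The calcium channel pores that could be tested were the L-type genes Cacna1c and Cacna1d, the P/Q-type gene Cacna1a and the N-type gene Cacna1b. Intensity of Cacna1c, the L-type pore also known from heart and smooth muscle, was 130.8, 132.2 and 107.6 in the null virus vehicle arrays, 140.5, 113.9 and 134.0 with null virus and GW347845, 117.6, 129.4, 148.5 and 122.0 with PPARγ virus and vehicle, and 132.4, 134.7, 139.5 and 128.4 with PPARγ virus and GW347845. All 4 groups overlapped, and the 4 arrays with receptor and agonist lay closest together. The combined log2 difference was 0.12 ± 0.12 (SE). For Cacna1d, the L-type pore that opens at lower voltages, the arrays read 64.8, 69.9 and 67.4 in the null virus vehicle arrays, 63.6, 70.8 and 52.4 with null virus and GW347845, 70.6, 78.5, 83.4 and 68.6 with PPARγ virus and vehicle, and 68.4, 56.3, 70.7 and 64.2 with PPARγ virus and GW347845. The groups overlapped, but all 4 PPARγ virus pairs of the same number were lower with GW347845, by a log2 difference of -0.20 ± 0.12 (limma unadjusted p = 0.126, adjusted p = 1.00). With the number as a block the limma unadjusted p was 0.106 (adjusted p = 0.648). Cacna1b, which serves transmitter release in neurons, gave 41.6, 56.8 and 40.6 in the null virus vehicle arrays, 54.9, 48.6 and 77.3 with null virus and GW347845, 55.0, 39.0, 47.5 and 32.9 with PPARγ virus and vehicle, and 42.6, 57.5, 38.4 and 27.2 with PPARγ virus and GW347845. Its highest array was in the null virus GW347845 group and its lowest in the PPARγ virus GW347845 group. The virus difference in GW347845 was -0.51 ± 0.24 (limma unadjusted p = 0.0498, adjusted p = 0.542), with a 95% interval of -1.02 to -0.0005. In vehicle the virus difference was -0.09 ± 0.24, and the interaction of -0.42 ± 0.34 did not pass. Cacna1a, a main pore for exocytosis in nerve endings, had group means of 48.9 ± 6.1 and 50.4 ± 10.2 (SD, n = 3) with null virus and of 52.2 ± 16.0 and 41.2 ± 11.3 (SD, n = 4) with PPARγ virus, vehicle first.

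Auxiliary calcium channel subunits were Cacna2d1, which raises the number of channels at the surface, and Cacnb2 and Cacnb3, cytoplasmic subunits that chaperone the pore. Cacna2d1 read 188.8, 227.2 and 188.7 in the null virus vehicle arrays, 201.9, 167.2 and 169.3 with null virus and GW347845, 167.3, 161.6, 243.8 and 165.2 with PPARγ virus and vehicle, and 201.5, 156.0, 194.1 and 117.0 with PPARγ virus and GW347845. PPARγ virus vehicle replicate 3 stood above the other arrays of its group and PPARγ virus GW347845 replicate 4 was the lowest of all. The combined log2 difference was -0.29 ± 0.19 (SE), the virus difference in vehicle was -0.14 ± 0.19, and neither passed. Cacnb3, whose loss in mice alters calcium release in beta cells, read 113.2, 100.3 and 116.1 in the null virus vehicle arrays, 104.7, 109.2 and 107.0 with null virus and GW347845, 110.3, 77.7, 122.1 and 78.8 with PPARγ virus and vehicle, and 123.0, 69.7, 117.1 and 81.4 with PPARγ virus and GW347845. Within the PPARγ virus groups, replicates 2 and 4 were below every null virus array and replicates 1 and 3 at or above most of them. The virus difference in vehicle was -0.19 ± 0.20 (SE). Cacnb2 had group means of 236 ± 14.7, 225 ± 17.2, 226 ± 34.0 and 233 ± 36.2 (SD, n = 3, 3, 4 and 4), with a combined difference of -0.03 ± 0.14.

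Sodium channel pores passing the intensity limit were Scn3a, Scn7a and Scn10a. Scn3a is a brain-type pore that islets also express. Scn3a intensity was 728.0, 850.1 and 890.3 in the null virus vehicle arrays, 809.8, 611.0 and 883.1 with null virus and GW347845, 1045.3, 596.4, 811.2 and 660.7 with PPARγ virus and vehicle, and 892.8, 576.5, 717.9 and 764.0 with PPARγ virus and GW347845. The ranges of all 4 groups overlapped, and the combined difference was -0.17 ± 0.19 (SE). Scn7a codes for an atypical channel that senses sodium and is described with the other genes that followed the replicate number. Scn10a, best known from pain-sensing neurons, had means of 38.3 ± 5.5, 37.5 ± 8.4, 38.9 ± 8.4 and 35.0 ± 3.5 (SD, n = 3, 3, 4 and 4), near the limit of 39.3. Both tested auxiliary genes code for beta subunits, membrane adhesion proteins that tune sodium channel gating. Scn3b read 202.9, 225.9 and 221.8 in the null virus vehicle arrays, 183.7, 219.3 and 244.6 with null virus and GW347845, 241.3, 194.4, 253.8 and 176.7 with PPARγ virus and vehicle, and 200.3, 175.4, 200.8 and 190.8 with PPARγ virus and GW347845. All 4 arrays with receptor and agonist were below all 3 double control arrays, without overlap, although the combined log2 difference was -0.17 ± 0.14 (limma adjusted p = 0.826). Arrays of the remaining groups spread over both. Scn4b read 46.7, 43.4 and 49.1 in the null virus vehicle arrays, 33.5, 27.3 and 48.3 with null virus and GW347845, 41.2, 43.1, 49.0 and 35.7 with PPARγ virus and vehicle, and 44.2, 39.5, 41.9 and 42.4 with PPARγ virus and GW347845. Under null virus, replicates 1 and 3 were lower with GW347845 and replicate 4 was about level, giving a log2 difference of -0.35 ± 0.19 (limma unadjusted p = 0.0872). Under PPARγ virus the difference was 0.00 ± 0.16.

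**Figure D2:**
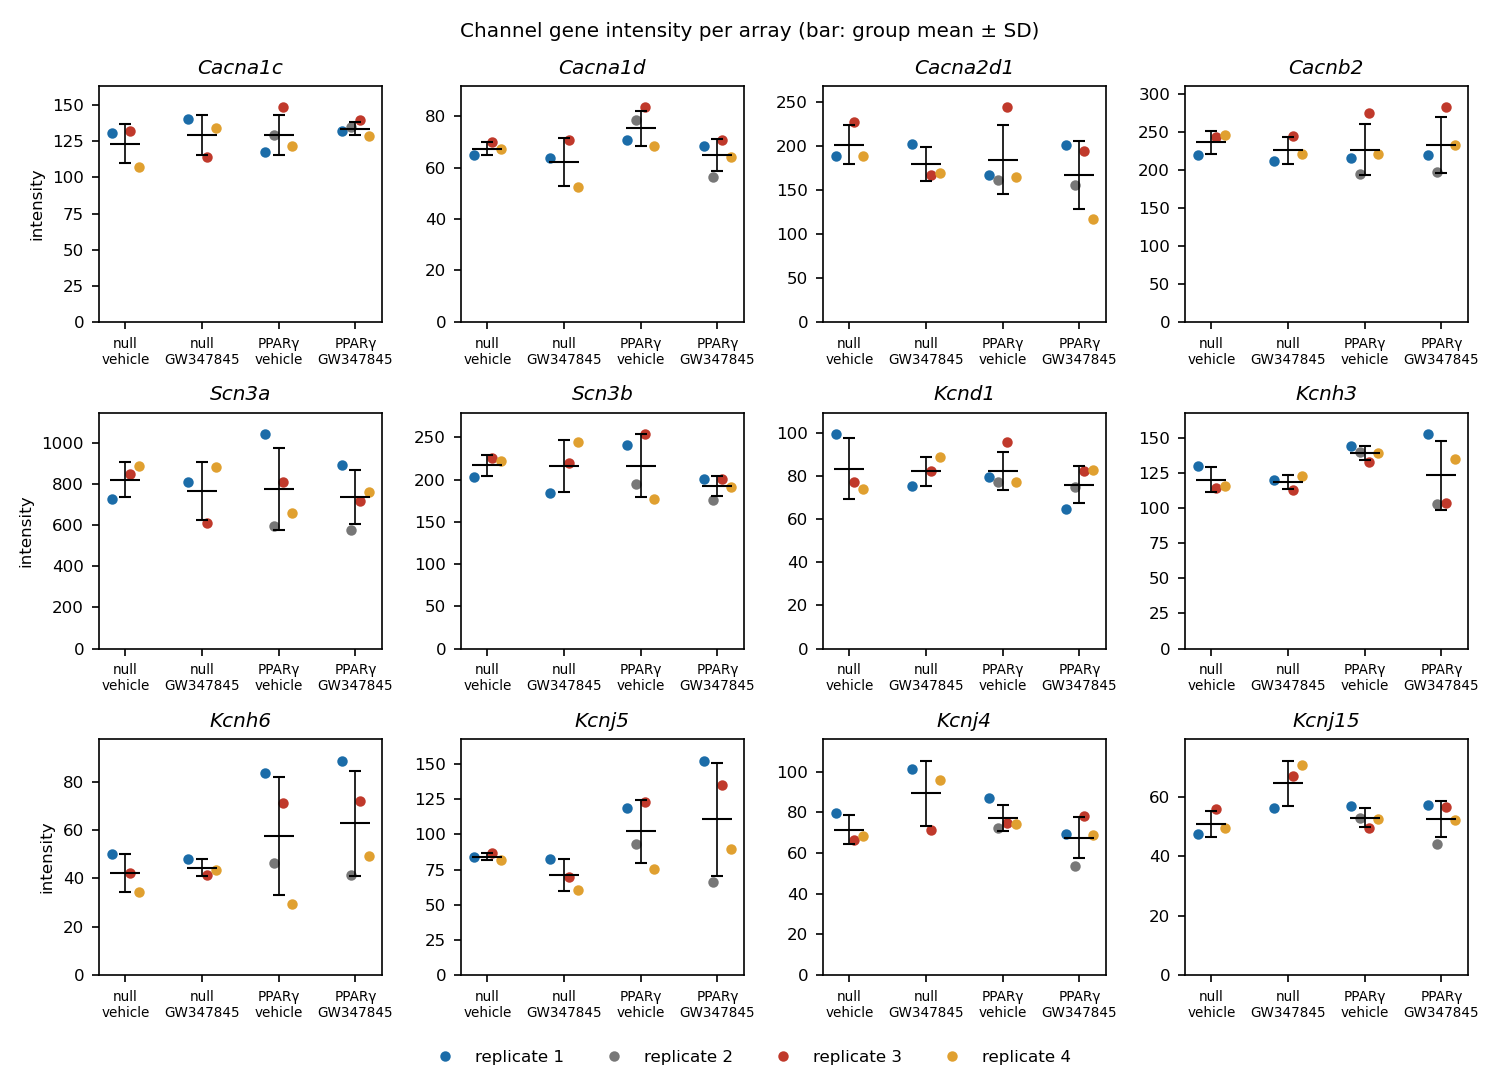
Intensity of 12 tested channel genes on each of the 14 arrays (linear scale, in arbitrary units), by virus and compound group and coloured by replicate number; bars are group means ± SD (n = 3 for null virus, n = 4 for PPARγ virus). The PPARγ virus arrays of Kcnh6 and Kcnj5 spread widely, from 29.3 to 88.7 and from 65.9 to 152.4; Cacna1c stays between 107.6 and 148.5 on all arrays.

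Voltage-gated potassium channel pores repolarise the membrane after each spike. The ether-a-go-go family gave 4 of the 9 tested genes: Kcnh1, Kcnh2, Kcnh3 and Kcnh6. Kcnh3, of the elk branch, read 130.3, 114.6 and 115.9 in the null virus vehicle arrays, 120.2, 113.1 and 122.9 with null virus and GW347845, 144.3, 140.2, 132.8 and 139.4 with PPARγ virus and vehicle, and 152.7, 102.7, 103.6 and 134.6 with PPARγ virus and GW347845. In vehicle, all 4 PPARγ virus arrays were above all 3 null virus arrays, by a log2 difference of 0.21 ± 0.14 (SE, limma unadjusted p = 0.150, adjusted p = 1.00). With GW347845 the PPARγ virus arrays lay on both sides of the null virus ones, and the difference was 0.03 ± 0.14. Kcnh6, an erg channel that beta cells use for repolarisation, read 49.9, 42.1 and 34.3 in the null virus vehicle arrays, 48.2, 41.4 and 43.5 with null virus and GW347845, 83.4, 46.4, 71.1 and 29.3 with PPARγ virus and vehicle, and 88.7, 41.2, 72.0 and 49.2 with PPARγ virus and GW347845. PPARγ virus replicates 1 and 3 were above every null virus array, while replicates 2 and 4 were not. The virus difference was 0.33 ± 0.30 in vehicle and 0.41 ± 0.30 in GW347845, and the combined difference 0.49 ± 0.30 (limma adjusted p = 0.742). Leaving out 1 array moved the virus difference in vehicle to between 0.13, without PPARγ virus replicate 1, and 0.59, without its replicate 4. Its relative Kcnh2, the erg channel known from cardiac repolarisation, read 54.3, 51.9 and 61.0 in the null virus vehicle arrays, 43.6, 44.1 and 50.8 with null virus and GW347845, 66.2, 43.1, 65.0 and 50.8 with PPARγ virus and vehicle, and 46.6, 38.3, 47.7 and 52.9 with PPARγ virus and GW347845. Every null virus GW347845 array was below every null virus vehicle array, with a difference of -0.25 ± 0.18 (limma unadjusted p = 0.184). Under PPARγ virus the agonist difference was -0.24 ± 0.15, with overlap and with 3 of 4 pairs lower.

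Other voltage-gated genes were named for their rank by p among the rising or falling genes of a contrast. They were the Shaker pore Kcna2, the Shaw pore Kcnc4 and the silent subunit Kcns3, none with an unadjusted p under 0.05. Kcna2 read 61.5, 53.4 and 76.5 in the null virus vehicle arrays, 58.8, 47.5 and 59.6 with null virus and GW347845, 57.6, 45.4, 108.3 and 35.5 with PPARγ virus and vehicle, and 56.7, 39.5, 38.9 and 48.4 with PPARγ virus and GW347845. PPARγ virus vehicle replicate 3 was by far the highest array. The combined log2 difference was -0.44 ± 0.28 (SE, limma adjusted p = 0.742). Kcnc4, whose promoter with AGGTCA is printed above, read 46.3, 30.8 and 34.7 in the null virus vehicle arrays, 40.6, 40.9 and 34.0 with null virus and GW347845, 47.9, 41.0, 42.1 and 32.8 with PPARγ virus and vehicle, and 37.6, 36.9, 25.1 and 28.0 with PPARγ virus and GW347845. All 4 PPARγ virus pairs were lower with GW347845, with overlap between the groups and a difference of -0.33 ± 0.18 (limma unadjusted p = 0.0918, adjusted p = 1.00). With the number as a block the SE was 0.15 (limma unadjusted p = 0.0556, adjusted p = 0.587). Under null virus the difference was 0.05 ± 0.21, and the interaction of -0.38 ± 0.28 did not pass. Kcns3, an electrically silent subunit that modifies other pores, had a virus difference in vehicle of -0.13 ± 0.16 (limma unadjusted p = 0.438). Its agonist difference under PPARγ virus was 0.13 ± 0.15 (limma unadjusted p = 0.408). Kcnd1, an A-type pore, had means between 75.9 and 83.3 in the 4 groups, Kcna5, a Shaker pore, between 38.0 and 44.4, and Kcnh1, the eag pore, between 39.0 and 42.1.

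Inward rectifiers hold the smallest p values of the chosen probe sets. Kcnj5, Kcnj3 and Kcnj6 code for G protein-gated channels, through which somatostatin and adrenergic receptors quiet islet cells. Kcnj5 read 83.6, 87.0 and 81.8 in the null virus vehicle arrays, 82.7, 69.8 and 60.4 with null virus and GW347845, 118.5, 92.9, 122.8 and 75.3 with PPARγ virus and vehicle, and 152.4, 65.9, 135.4 and 89.3 with PPARγ virus and GW347845. PPARγ virus replicates 1 and 3 were above every null virus array with either treatment, while replicates 2 and 4 lay between 65.9 and 92.9, in part among them. The virus difference in GW347845 was 0.55 ± 0.24 (SE, limma unadjusted p = 0.0387, adjusted p = 0.500), and in vehicle it was 0.25 ± 0.24. PPARγ virus replicates 2 and 4 are also the arrays lowest in glucagon and pancreatic polypeptide. Without those 4 arrays, an alternative added after the data were seen, the Kcnj5 difference in GW347845 was 0.98 ± 0.15 (limma adjusted p = 0.0134), the single call of a chosen channel probe set in any fit, where 0.889% of 9894 probe sets were called. That fit rests on 2 PPARγ virus arrays per group, and both are the high ones. Kcnj6 read 47.5, 39.3 and 36.0 in the null virus vehicle arrays, 45.3, 40.6 and 42.2 with null virus and GW347845, 37.7, 41.7, 38.9 and 35.1 with PPARγ virus and vehicle, and 34.5, 40.2, 37.0 and 38.1 with PPARγ virus and GW347845. With GW347845, all 4 PPARγ virus arrays were below all 3 null virus arrays, by a log2 difference of -0.17 ± 0.15 (limma adjusted p = 0.833). Vehicle arrays of both viruses overlapped. Kcnj3 had means of 41.4 ± 17.1, 44.4 ± 9.4, 37.5 ± 5.0 and 44.3 ± 10.3 (SD, n = 3, 3, 4 and 4).

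Kcnj4, a strong inward rectifier that stabilises the resting potential, had the one interaction with an unadjusted p under 0.05. Kcnj4 read 79.8, 66.4 and 68.3 in the null virus vehicle arrays, 101.1, 71.1 and 95.9 with null virus and GW347845, 86.8, 72.5, 75.0 and 74.5 with PPARγ virus and vehicle, and 69.3, 53.7, 78.0 and 69.0 with PPARγ virus and GW347845. Under null virus all 3 pairs were higher with GW347845, and under PPARγ virus 3 of 4 pairs were lower. The difference was 0.29 ± 0.16 (SE) under null virus and -0.19 ± 0.14 under PPARγ virus. Their difference, the interaction, was -0.48 ± 0.22 (limma unadjusted p = 0.0416, adjusted p = 1.00), and the virus difference in GW347845 was -0.38 ± 0.15 (limma unadjusted p = 0.0263, adjusted p = 0.437), so neither passed. Kcnj15, a rectifier of transporting epithelia that beta cells also express, read 47.7, 55.9 and 49.5 in the null virus vehicle arrays, 56.2, 67.3 and 70.7 with null virus and GW347845, 57.1, 53.0, 49.5 and 52.7 with PPARγ virus and vehicle, and 57.2, 44.1, 56.7 and 52.2 with PPARγ virus and GW347845. Every null virus GW347845 array was above every null virus vehicle array, with a difference of 0.31 ± 0.15 (limma unadjusted p = 0.0510, adjusted p = 1.00). The PPARγ virus groups showed no such separation, with a difference of -0.02 ± 0.13, and the interaction was -0.33 ± 0.20. Kcnj8, the pore of the vascular type of ATP-sensitive channel, had means of 64.9 ± 5.3, 74.0 ± 6.7, 69.0 ± 16.3 and 72.8 ± 17.0 (SD, n = 3, 3, 4 and 4). Means of Kcnj13, a rectifier of epithelia such as the retinal pigment layer, lay between 31.5 and 42.5.

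Channels of the two-pore family leak potassium at rest. Kcnk1, Kcnk3 and Kcnk6 could be tested. Kcnk1 read 39.9, 61.1 and 37.5 in the null virus vehicle arrays, 61.0, 48.8 and 39.9 with null virus and GW347845, 88.6, 50.0, 97.7 and 40 with PPARγ virus and vehicle, and 79.2, 59.3, 69.4 and 48.2 with PPARγ virus and GW347845. PPARγ virus replicates 1 and 3 were above every null virus array, and replicates 2 and 4 lay among them. The virus difference was 0.48 ± 0.28 (SE, limma unadjusted p = 0.109) in vehicle, and the combined difference was 0.44 ± 0.28. In vehicle it was 0.29 without PPARγ virus replicate 3 and 0.69 without its replicate 4. For Kcnk6 the chosen probe set read 110.6, 84.1 and 91.8 in the null virus vehicle arrays, 89.5, 96.1 and 100.3 with null virus and GW347845, 102.6, 93.4, 106.9 and 93.4 with PPARγ virus and vehicle, and 101.6, 80.1, 88.3 and 73.5 with PPARγ virus and GW347845. The PPARγ virus pairs were lower with GW347845 in 4 of 4, by -0.20 ± 0.12 (limma unadjusted p = 0.118, or 0.0832 with the number as a block). Among the tested channel genes, Cacna1d, Kcnc4, Kcnip3, Kcna5 and Scn7a were also lower in 4 of 4 pairs. Cacnb2 was higher in 4 of 4. The share of all tested probe sets with such pairs is not given here, so these counts show no trait of the channel genes. Kcnk3, an acid-sensitive leak channel, had means of 55.3 ± 15.6, 54.9 ± 17.0, 62.0 ± 17.0 and 50.4 ± 3.4 (SD, n = 3, 3, 4 and 4).

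Kcnk6 was also measured by a dimmer probe set, which read 30.8, 27.7 and 68.6 in the null virus vehicle arrays, 49.8, 65.6 and 47.1 with null virus and GW347845, 83.8, 71.6, 64.9 and 50.4 with PPARγ virus and vehicle, and 88.3, 69.4, 94.4 and 61.9 with PPARγ virus and GW347845. On this probe set most PPARγ virus arrays were above most null virus arrays. Its log2 difference was 0.70 for the virus in vehicle and 0.91 ± 0.26 (SE, limma unadjusted p = 0.00357, adjusted p = 0.203) in the combined contrast, where the chosen probe set gave -0.15 ± 0.13. It passed in one fit, without null virus vehicle replicate 4, the highest of its group, with 1.28 (limma adjusted p = 0.0227). For all 6 genes with several tested probe sets, Cacnb2, Kcnj15, Kcnj3, Kcnk3, Kcnk6 and Kcnma1, the sign of the difference depended on the probe set in 1 to 4 of the 6 contrasts. The separation of Kcnj15 under null virus was seen on its chosen probe set, and the other gave a difference of -0.04 ± 0.38.

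Arrays of a contrast can also be compared by whether the groups overlap. For the virus in vehicle 1 of 35 channel genes did not overlap (Kcnh3), against 4.62% of all tested probe sets. For the virus in GW347845 it was 1 (Kcnj6), against 9.82%. For GW347845 under null virus it was 2 (Kcnj15 and Kcnh2), against 4.61%, and under PPARγ virus 0, against 1.8%. In the combined contrast it was 1 (Scn3b), against 8.95%. These counts are near or below the background.

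The channel genes also varied between arrays of 1 group. Vehicle and GW347845 arrays of the same virus and number deviated together, and the share of within-group variance that lay between numbers was over 90% for 6 of the 35 genes (17.1%), against 19.6% of all tested probe sets. The 6 were Kcna5, Scn7a, Cacnb2, Kcnip3, Kcnma1 and Cacnb3. Channel genes as a whole had a median within-group SD of 0.26 (log2) and a median share of 74.5%, against 0.22 and 76.6% for all tested probe sets. Kcnip3, a calcium-binding protein that binds A-type potassium channels and also acts as a transcriptional repressor, read 415.9, 258.9 and 244.4 in the null virus vehicle arrays, 348.2, 321.7 and 296.8 with null virus and GW347845, 429.8, 114.7, 499.7 and 263.5 with PPARγ virus and vehicle, and 390.2, 99.1, 321.0 and 245.1 with PPARγ virus and GW347845. PPARγ virus replicate 2 was the lowest array with both treatments, far below the others, and the within-group SD was 0.72. Kcnma1, the pore of the large-conductance calcium-activated potassium channel, read 465.1, 368.7 and 563.9 in the null virus vehicle arrays, 357.0, 460.2 and 499.3 with null virus and GW347845, 569.4, 230.3, 671.3 and 407.0 with PPARγ virus and vehicle, and 558.9, 209.3, 744.0 and 382.6 with PPARγ virus and GW347845. Again PPARγ virus replicate 2 was lowest and replicate 3 highest with both treatments, with an SD of 0.59. The combined log2 difference was -0.10 ± 0.38 (SE) for Kcnma1 and -0.33 ± 0.46 for Kcnip3. Scn7a read 141.4, 146.3 and 186.1 in the null virus vehicle arrays, 119.2, 164.1 and 175.6 with null virus and GW347845, 186.1, 98.7, 224.5 and 99.7 with PPARγ virus and vehicle, and 183.9, 95.3, 196.4 and 99.2 with PPARγ virus and GW347845. Here replicates 2 and 4 of the PPARγ virus were both low, at about the same value in vehicle and in agonist, with an SD of 0.47.

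Hormone genes were compared over the same arrays. Gcg, the glucagon gene of alpha cells, was at 2621, 2834 and 3423 and at 2879, 3305 and 3282 in the null virus arrays, vehicle first. With PPARγ virus it was at 3788, 420.8, 4192 and 1231 in vehicle and at 3606, 180.8, 3911 and 1221 with GW347845. Replicates 2 and 4 were thus low in Gcg as in Scn7a and Cacnb3, and replicate 2 was lowest as in Kcnip3 and Kcnma1. The share of variance between numbers was 97.5% for Gcg, with a within-group SD of 1.41, and 98.7% for Ppy, with an SD of 1.83. Pyy had a share of 97.5% and an SD of 1.72. Sst, of delta cells, followed Gcg in part. With PPARγ virus and vehicle it was at 293.8, 272.3, 1253.7 and 222.8. Replicates 2 and 4 there lay within the null virus range of 172.1 to 425.3, and replicate 3 was far above it. With PPARγ virus and GW347845 it was at 512.2, 155.1, 1279.2 and 170.0. Replicates 2 and 4 there were below that range and replicates 1 and 3 above it. The share between numbers was 93.0% for Sst, with an SD of 1.07. Ghrl, the ghrelin gene, did not separate these arrays in vehicle, with 67.1, 56.8, 49.2 and 47.3 under PPARγ virus. With PPARγ virus and GW347845 it was at 68.0, 44.9, 69.3 and 56.9, and replicates 2 and 4 were the lowest. Of the beta cell genes, Ins1, Ins2, Iapp and Slc2a2 were also lowest in PPARγ virus replicate 2. Pdx1 and Nkx6-1 were not. Pdx1 was lowest in PPARγ virus GW347845 replicate 1 (208.3) and Nkx6-1 in null virus vehicle replicate 4 (296.9). In PPARγ virus replicate 2, Ins1 was at 5067 in vehicle and 4627 with GW347845, against 5332 to 7093 on the other 12 arrays. The summed beta cell markers were at 13916 and 12708 there, against 15188 to 20089. The part of other cell types in these channel values was not tested.

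**Figure D3:**
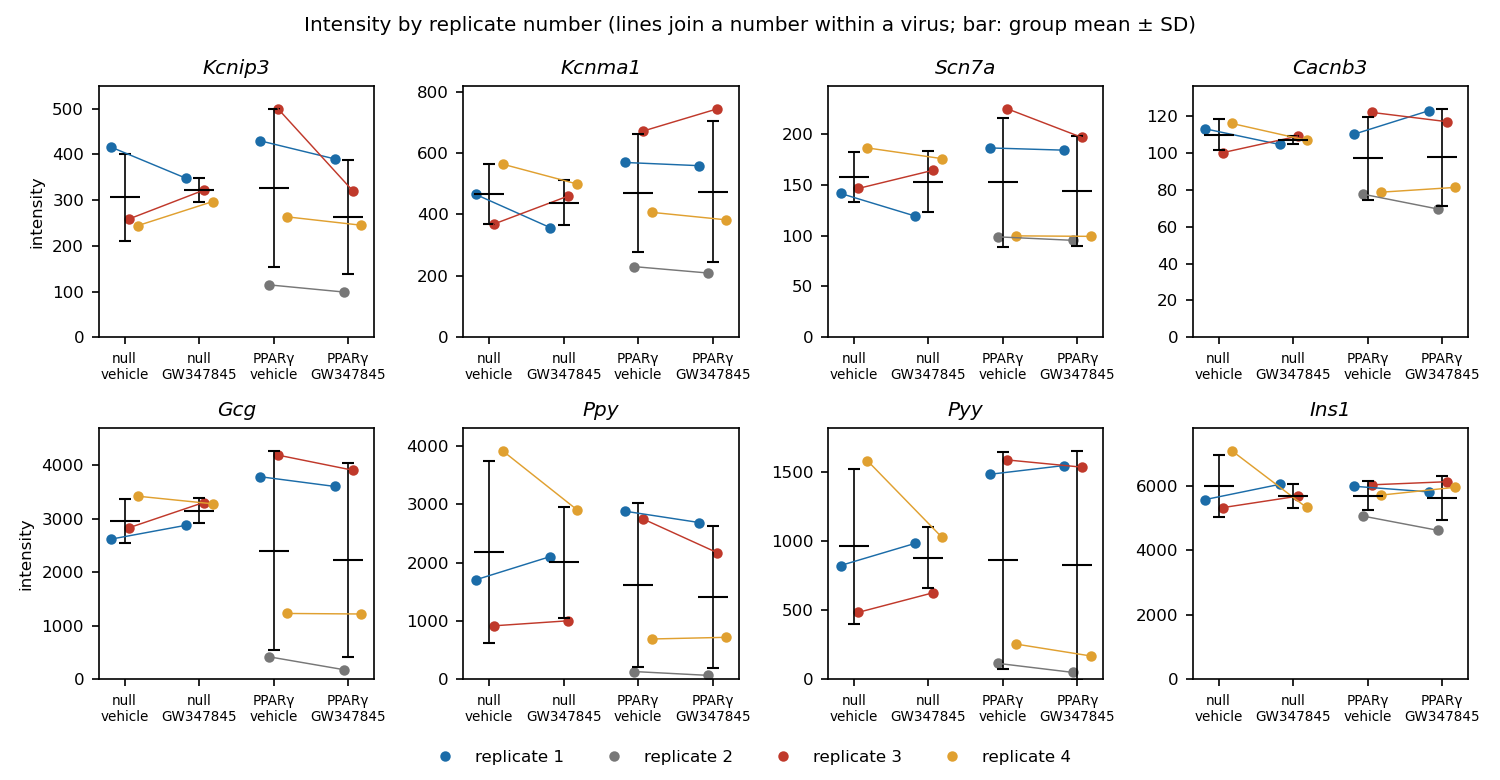
Intensity on each array (linear scale, in arbitrary units) of 4 channel genes, of the hormone genes Gcg, Ppy and Pyy and of the insulin gene Ins1; lines join the vehicle and GW347845 arrays of the same number within a virus, and bars are group means ± SD (n = 3 for null virus, n = 4 for PPARγ virus). PPARγ virus replicate 2 is lowest in Kcnip3, Kcnma1, Gcg, Ppy, Pyy and Ins1, and replicate 4 is low in Scn7a, Cacnb3 and Gcg.

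Kcne3, a single-span subunit that holds Kcnq channels open in epithelia, was the most variable channel gene and read 16.4, 74.1 and 74.7 in the null virus vehicle arrays, 62.6, 47.0 and 20.7 with null virus and GW347845, 58.2, 9.6, 60.2 and 61.2 with PPARγ virus and vehicle, and 87.7, 77.8, 61.9 and 14.9 with PPARγ virus and GW347845. Low arrays (16.4, 20.7, 9.6 and 14.9) occurred once in each group, and never in both arrays of a number within a virus. Its within-group SD was 1.01, and 26.4% of that variance lay between numbers. The agonist difference under PPARγ virus was 0.34 ± 0.61 (SE), and its sign rested on PPARγ virus vehicle replicate 2: without that array it was -0.20. Kcnmb4, an auxiliary subunit of the Kcnma1 channel, had means of 47.1 ± 5.1, 49.0 ± 9.1, 47.5 ± 10.6 and 47.4 ± 9.6 (SD, n = 3, 3, 4 and 4), within their spread of each other.

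**Figure D4:**
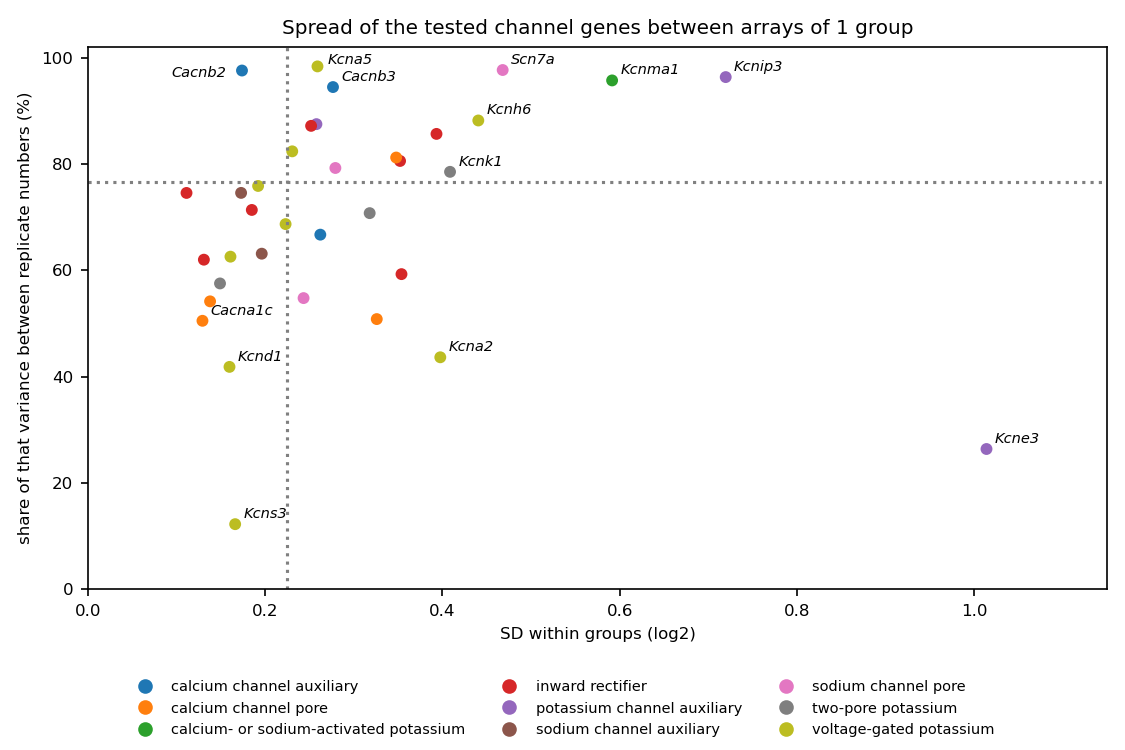
Within-group SD of log2 intensity (horizontal) against the percent of within-group variance that lies between replicate numbers (vertical) for the 35 tested channel genes, coloured by family; dotted lines are the medians of all tested probe sets, 0.22 and 76.6%. Kcnip3, Kcnma1 and Scn7a combine a large SD with a share over 90%, and Kcne3 has the largest SD, 1.01, with a share of 26.4%.

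Among the 73 genes below the intensity limit are several that the electrophysiology of islets is built on. Cacna1e (R-type) lay between 9.4 and 28.6 over the 14 arrays, and the T-type genes Cacna1g and Cacna1h between 3.0 and 5.8 and between 13.5 and 41.0. Kcnb2, a delayed rectifier pore, ranged from 9.6 to 65.2 and was above 39.3 in 2 arrays. Kcnq1 lay between 4.2 and 38.8, and the small- and intermediate-conductance calcium-activated channel genes Kcnn3 and Kcnn4 between 9.5 and 40.2 and between 0.7 and 11.2. Scn9a, the main sodium channel pore of rodent beta cells, ranged from 11.3 to 50.2, above the limit in 2 arrays, and Scn8a from 1.2 to 11.3. A dim probe set gives no level of the gene against another gene's, and it does not show that the gene is silent. Of 34 channel genes listed for their known role in islets, 29 were on the array and 16 could be tested, and none of these passed in a contrast; Cacna1b alone had an unadjusted p under 0.05, in 1 of them.

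Genes that work beside these channels were counted from a list of 40 genes that are not among the 108. It holds pumps, exchangers, calcium release channels, other cation and chloride channels, calmodulin kinases, glucose sensing genes, exocytosis genes, and both subunits of the beta cell ATP-sensitive channel, Abcc8 and Kcnj11. Of these, 32 were on the array and 23 could be tested, and 0 passed in any contrast (limma), with 0 to 2 at an unadjusted p under 0.05. Abcc8, the sulfonylurea receptor of the ATP-sensitive channel, had means of 201 ± 19.3, 196 ± 8.12, 211 ± 69.1 and 168 ± 25.0 (SD, n = 3, 3, 4 and 4), with a combined difference of -0.26 ± 0.20 (SE). The list's median log2 difference was -0.16 in the combined contrast and -0.06 for the virus in vehicle, against -0.03 and 0.00 over all tested probe sets.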

How the data were processed

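RNA of rat islets was measured on an oligonucleotide expression array. The deposited values are intensity on a linear scale, 1 per probe set; the sources used here do not name the summarising software. The values show a scaling by the authors, since the 2% trimmed mean of each column is 150.0; column medians were 56.4 to 67.5. Values were therefore used as deposited. Of 16 columns, the 2 of null virus replicate 2 (vehicle and GW347845) were identical and were left out.

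Values were taken as log2(value + 4.6), the 10th percentile of positive values, a scale that understates changes of dim genes. A probe set was tested if above 39.3, the 40th percentile, in at least 4 arrays (10078 of 15923). Group means were compared by limma 3.58.1 (R 4.3.3, eBayes with trend), with Benjamini-Hochberg adjustment over all tested probe sets and a threshold of 0.05. Within a virus, arrays of the same number correlated in their deviations from the group mean (r = 0.45 to 0.70, 7 of 7 pairs over 0.1). These numbers thus pair vehicle with GW347845. Across viruses r was 0.30 to 0.43 for number 1 and -0.14 to 0.13 for numbers 3 and 4. The main fit did not pair arrays across viruses. The number of arrays limits the precision.

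Genes named were, in each contrast, those past the threshold and otherwise the 3 positive and 3 negative differences with the smallest p, the channel genes known from islets, and genes whose tested probe sets differ in sign; other tested genes were added to complete families. Members and lists were chosen with earlier results of these data known. Alternatives were other pseudocounts, filters, normalization, columns, probe sets, replicate blocks and arrays left out. The fit was tested on simulated data.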

Additional observations from a re-analysis of the deposited data

Results flagged for a closer look

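In 70 groups of 4 arrays (35 genes in both PPARγ virus groups), 4 had an array far from the others of its group, and chance alone gives about 1 in 20. Cacna2d1 read 243.8 and Kcnd1 read 95.5 in PPARγ virus vehicle replicate 3, both above their group. Kcne3 read 9.6 in PPARγ virus vehicle replicate 2, below its group. Scn10a read 26.5 in PPARγ virus vehicle replicate 4, below its group.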

How the results depend on the processing

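Counts of called channel genes were 0 in all but 1 of 170 alternative fits. With PPARγ virus replicates 2 and 4 both left out, a choice made after seeing the data, 1 gene (Kcnj5, 0.98) was called for the virus in GW347845. Of 962 alternative values of the named genes, 953 kept their direction and side of the threshold. In that same fit the virus differences in vehicle of Cacnb3 (0.0786) and Cacna2d1 (0.0087) turned positive. With the other probe set, GW347845 under null virus gave -0.0417 for Kcnj15 and GW347845 under PPARγ virus gave 0.20 for Kcnk6. Leaving out 1 array at a time, the Kcne3 agonist difference under PPARγ virus ranged from -0.20 to 0.85 and its interaction from -0.0088 to 1.17; without both replicate 2 arrays of the PPARγ virus they were -0.39 and -0.19. Of the 36 named gene values, none of which passed, 21 moved by over 1.5 times when 1 array was left out. They include, with their lowest and highest values, Cacna2d1 in the combined contrast (-0.39 to -0.13) and for the virus in vehicle (-0.28 to -0.05), Scn4b for GW347845 under null virus (-0.55 to -0.18), Kcns3 for the virus in vehicle (-0.22 to -0.07), Kcnh6 for the virus in vehicle (0.13 to 0.59) and in GW347845 (0.23 to 0.57), Cacnb3 for the virus in vehicle (-0.31 to -0.10) and Kcnj5 in the combined contrast (0.14 to 0.52). The cause of these reversals was not tested. With the replicate block within each virus, 0 channel genes were called in both agonist contrasts and in the interaction (lowest adjusted p 0.519), although calls over all probe sets went from 6 to 40 for GW347845 under PPARγ virus and from 0 to 5 for the interaction; Kcnj4 had an interaction of -0.48 with unadjusted p = 0.0171, adjusted p = 0.788 (limma). With no intensity filter, a dim second probe set of Cacna1i passed in the combined contrast (-1.16, limma adjusted p = 0.0495). Intensity near background limits what can be said of the 73 untested genes.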
